A study of Drosophila melanogaster with 4 samples.

Results

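Aminoacyl tRNA synthetases attach each amino acid to its own tRNA, the step that makes the genetic code readable by the ribosome. Animal cells run 2 such systems. Cytosolic enzymes charge tRNAs for the proteins encoded in the nucleus, and mitochondrial enzymes, also encoded in the nucleus but imported, charge the tRNAs that translate the few mitochondrial messages. Some genes make both forms from one locus. Known regulation of the cytosolic enzymes includes the integrated stress response, in which kinases that sense amino acid shortage or unfolded protein favour translation of the transcription factor ATF4 (crc in flies).

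The genes were taken by their FlyBase symbols, as every symbol made of 1 or more three-letter amino acid codes followed by RS, with or without the ending -m, and with counts that averaged 20 or more across the 4 libraries. This gave 31 genes of 14869 in the count tables, of which 7883 passed the same count minimum. No gene was lost to that minimum. The ending -m marked 14 mitochondrial enzymes, and the other 17 are called cytosolic here, although some also make the mitochondrial enzyme. The symbols LeuRS and PheRS-m fitted the name rule but were not analysed here.

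The study used S2 cells, an established Drosophila melanogaster line of embryonic origin that resembles haemocytes (blood cells). Growing cells received 40 µM radicicol, which blocks the chaperone Hsp90, for 15, 30 or 60 min, and control cells received DMSO, the solvent of the drug, labelled 0 min. Polyadenylated RNA was sequenced from 1 library per condition, so there was no replicate error. Fold differences below carry exact 95% counting intervals, and these hold no error other than that of counting. Time, order of handling and library cannot be told apart from the drug, and the DMSO library also had no treatment time matched to the 15, 30 or 60 min samples.

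The DMSO library stood apart in depth and in alignment. The radicicol libraries held 28614983 to 31028233 counts over genes with 17.8 to 21.5% of reads not aligned, against 19153476 counts and 44.1% not aligned in DMSO. Comparisons within the radicicol libraries are therefore given as well. All 14 measured heat shock genes were at least 2-fold higher at 60 min than in DMSO, and Hsp83, which encodes Hsp90, was 2.38 higher on the log2 scale. Of the 10 S2 marker genes listed, 9 were in the tables, with summed levels of 4950, 5790, 5720 and 7510 CPM (counts per 1000000 counts of scaled library size) in DMSO and at 15, 30 and 60 min. Summed neuron markers were at 2.58, 6.18, 4.85 and 19.1 CPM, of which elav held 16.3 CPM at 60 min. Muscle markers, for which 2 of 4 listed genes were found, were at 20.1 to 34.3 CPM, mostly from Act88F. Germ line markers, for which 1 of 3 listed genes (bam) was found, and fat body markers were at 1.28 CPM or less.

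Transcripts of cytosolic enzymes were more abundant than those of mitochondrial enzymes throughout. At 60 min, per kilobase of exon, cytosolic genes ran from 45.3 (GlnRS) to 217 CPM (AsnRS), with a median of 78.8, and mitochondrial genes from 2.63 (ValRS-m) to 33.7 CPM (AspRS-m), with a median of 7.80. In DMSO, cytosolic genes ran from 34.5 (GluProRS) to 218 CPM per kilobase (AsnRS), with a median of 87.2, and mitochondrial genes from 4.0 (ValRS-m) to 30.9 (ProRS-m), with a median of 12.2. The ranges of the compartments did not overlap at either time. Among all measured genes ranked by level per kilobase, the cytosolic enzymes lay between the percentiles 69.0 and 95.3 in DMSO and the mitochondrial ones between 22.8 and 66.4. AsnRS, which charges tRNA with asparagine, kept the highest level in each of the 4 libraries, at 218, 188, 199 and 217 CPM per kilobase in DMSO and at 15, 30 and 60 min. ValRS-m, the mitochondrial valine enzyme, had the lowest, at 4.0, 3.86, 3.23 and 2.63. The exon length of a gene is the union over its transcripts in an annotation newer than the counting, which sets these levels where a gene has long untranslated ends.

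**Figure D1:**
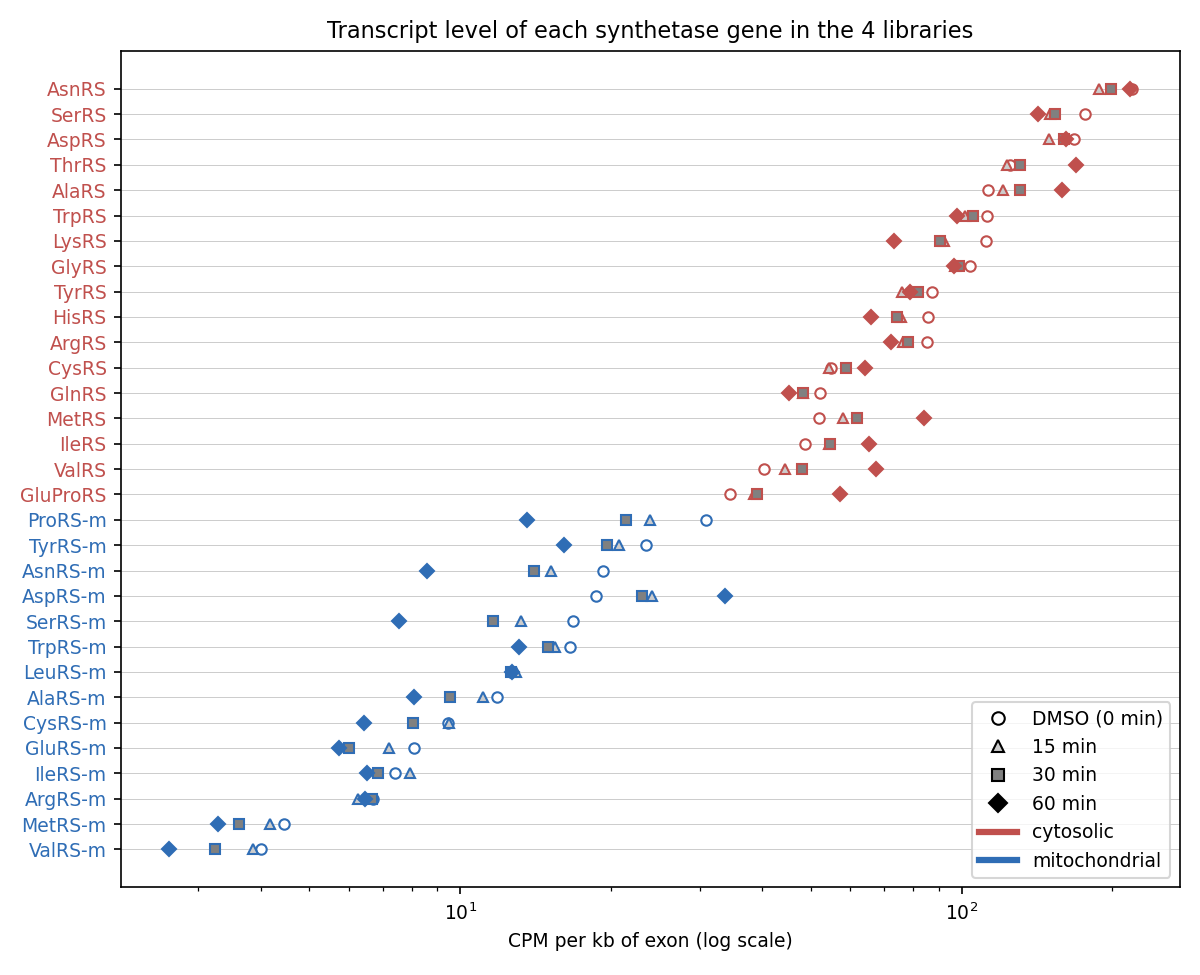
Level of each synthetase gene in CPM per kilobase of exon (log axis) in the 4 libraries, 1 row per gene ordered by the DMSO level; marker shape gives the library, and colour gives the compartment. The 17 cytosolic genes lie above the 14 mitochondrial genes, which ranged from 4.0 to 30.9 in DMSO, and AspRS-m is the mitochondrial gene with the highest level at 60 min (33.7).

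Summed over each compartment as measured, the balance between the systems shifted toward the cytosolic one. The cytosolic enzymes together held 4212, 3991, 4160 and 4573 CPM in DMSO and at 15, 30 and 60 min, and the mitochondrial enzymes 459.8, 447.5, 412.3 and 405.8 CPM. AspRS-m alone made up 82.4 CPM of the mitochondrial sum in DMSO and 149.2 CPM at 60 min, so its rise as measured masks part of the fall of the others. In the cytosolic sum, 7 of 17 genes were above their DMSO level at 60 min. Among them AlaRS, ThrRS and GluProRS went from 371.9, 362.4 and 188.2 CPM to 520.9, 490.1 and 311.9 CPM. With the relation of folds to exon length removed, the log2 folds of AspRS-m, AlaRS, ThrRS and GluProRS at 60 min were 0.02, 0.02, 0.12 and -0.365. The sums and their ratio are not corrected for exon length. The ratio of cytosolic to mitochondrial counts, which needs no normalization, was 9.16 (interval 8.96 to 9.37) in DMSO, 8.92 (8.76 to 9.08) at 15 min, 10.1 (9.91 to 10.3) at 30 min and 11.3 (11.1 to 11.5) at 60 min. The intervals of DMSO and 15 min overlap, and those of 30 and 60 min lie above both. In these bulk libraries, a change in the cells present and a change in RNA per cell cannot be told apart. All 31 genes together took 0.444 to 0.488% of the gene counts.

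**Figure D2:**
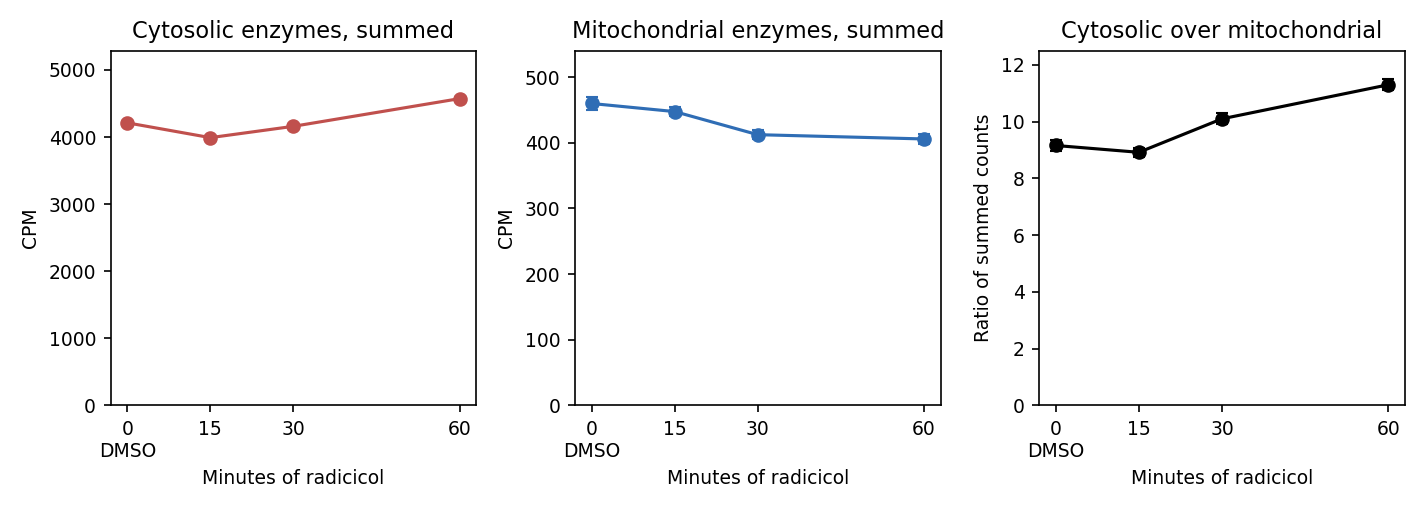
Summed level of the 17 cytosolic enzymes (left, CPM) and the 14 mitochondrial enzymes (middle, CPM), and the ratio of their summed counts (right), against minutes of radicicol, with DMSO at 0. Bars are exact 95% counting intervals with 1 library per point. The ratio was 11.3 at 60 min and 9.16 in DMSO.

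Changes of single synthetase genes were mostly small. A gene was counted as changed in a comparison when its log2 fold was at least 1 in size, a 2-fold difference, with its counting interval on that side of 0. At 15 min, 0 of the 31 genes were 2-fold higher or lower than in DMSO, against 1.40% higher and 1.23% lower among all measured genes. At 30 min the count was again 0 in each direction, against 3.36% and 1.32%. At 60 min 0 were higher and 3 lower, against 19.7% and 12.6%. Each of the 3 was mitochondrial, so that 3 of 14 mitochondrial and 0 of 17 cytosolic genes were past the limit. Folds also followed exon length in these libraries, as described with the lengths. Values with that relation removed over all genes, or corrected for length, stand beside most of the results that they change. They are not given for sums or for comparisons within radicicol.

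As measured, those 3 were the enzymes for proline, asparagine and serine. ProRS-m (FBgn0027082) had 46.9, 36.3, 32.4 and 20.7 CPM in DMSO and at 15, 30 and 60 min, from 852, 1098, 1017 and 628 counts. Its log2 fold at 60 min against DMSO was -1.18 (-1.33 to -1.03). AsnRS-m (FBgn0034177) had 28.5, 22.5, 20.8 and 12.7 CPM, from 518, 681, 653 and 386 counts. Its log2 fold was -1.17 (-1.36 to -0.97), and the cytosolic AsnRS was at -0.01. SerRS-m (FBgn0021750) had 42.7, 33.7, 29.6 and 19.2 CPM, from 777, 1019, 929 and 585 counts. Its log2 fold was -1.15 (-1.31 to -0.995). In the same order, their log2 folds were -0.37, -0.34 and -0.34 at 15 min against DMSO, and -0.65, -0.72 and -0.62 at 60 min against 30 min. Removing the relation to length gave a count of 3 at 60 min again, but SerRS-m (-1.30) was joined by MetRS-m (-1.24) and ValRS-m (-1.06), while ProRS-m (-0.77) and AsnRS-m (-0.74) were under the limit.

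The median log2 fold at 15, 30 and 60 min was -0.12, -0.07 and -0.05 for the cytosolic enzymes and -0.10, -0.28 and -0.52 for the mitochondrial ones. All measured genes had medians of 0, 0 and -0.02 after rounding. At 15 min the compartments had similar medians, and they separated from 30 min on. At 60 min the range was -0.61 to 0.75 for cytosolic and -1.18 to 0.86 for mitochondrial genes. Counting intervals lay above 0 for 7 and below 0 for 9 of 17 cytosolic genes, and above 0 for 1 and below 0 for 10 of 14 mitochondrial genes. Among all 7883 measured genes they lay above 0 for 3307 and below 0 for 3382. Without the DMSO library, the log2 folds of 60 min against 15 min had medians of 0.11 for cytosolic, -0.35 for mitochondrial and -0.02 for all measured genes. By that comparison 0 of the 31 genes were 2-fold higher or lower, against 13.0% and 2.90% of all measured genes. Its folds also followed exon length and are not corrected for it here.

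**Figure D3:**
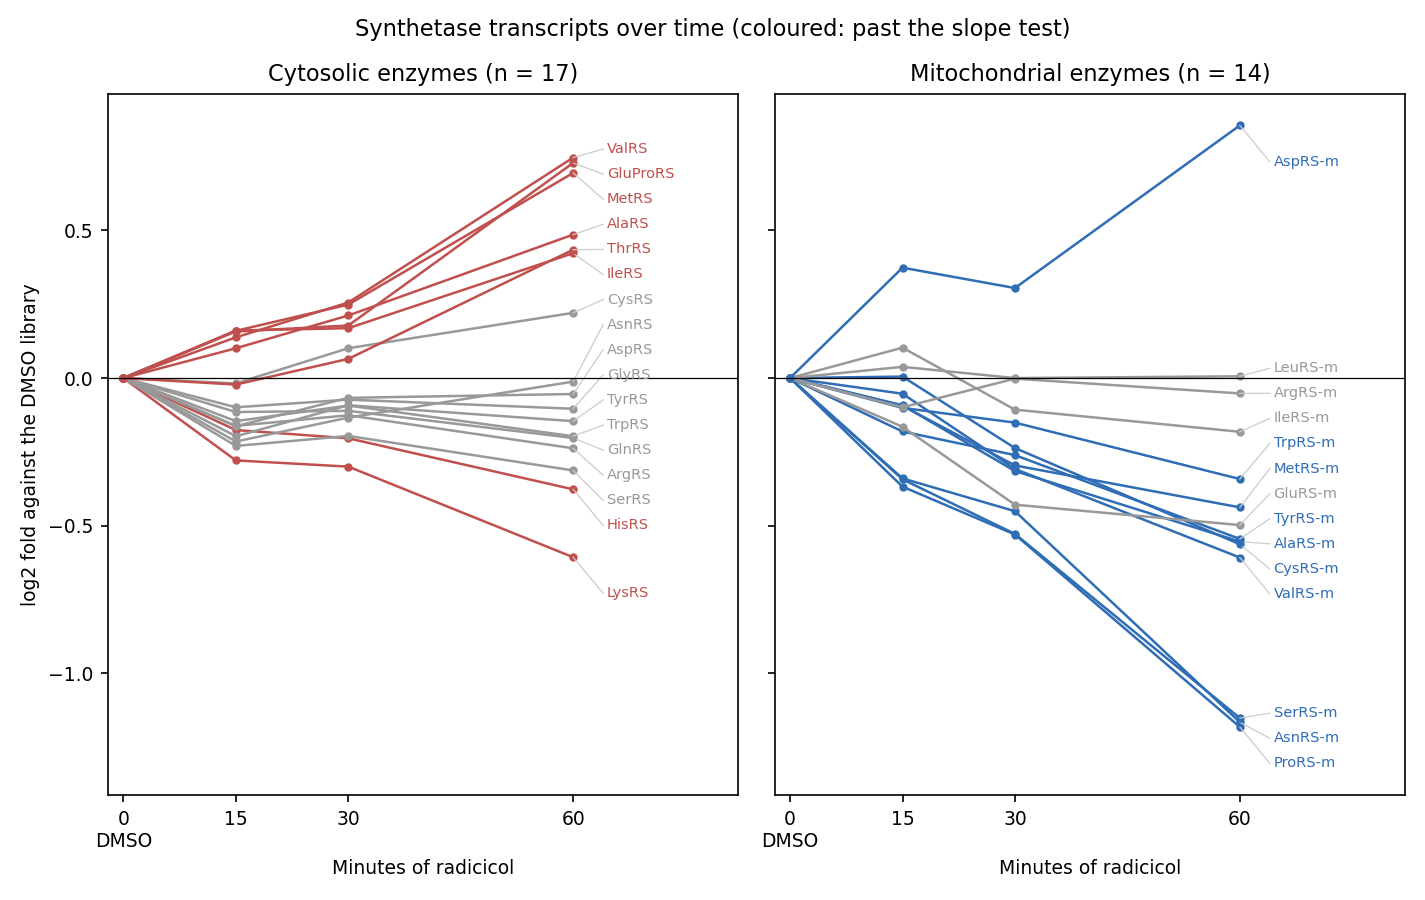
Log2 fold against the DMSO library (vertical) by minutes of radicicol (horizontal) for the 17 cytosolic (left) and 14 mitochondrial (right) enzymes, 1 line per gene; coloured lines passed the slope test and grey lines did not. The cytosolic lines at 60 min spread between -0.61 and 0.75, and the mitochondrial lines lie mostly below 0, with AspRS-m alone at 0.86.

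A slope over minutes was fitted across the 4 libraries for all measured genes with edgeR's quasi-likelihood test, with p-values adjusted over 7883 genes by the Benjamini-Hochberg method. It measures scatter about a straight line over 2 residual degrees of freedom, not the spread between replicates. By adjusted p below 0.05, 34.1% of all measured genes rose and 33.8% fell. Of the cytosolic enzymes, 6 of 17 rose (35.3%) and 2 fell (11.8%). Of the mitochondrial enzymes, 1 of 14 rose (7.14%) and 9 fell (64.3%). The share of cytosolic genes that rose was thus close to that of all genes, and the mitochondrial share that fell was above it. Without the 60 min library, which leaves 1 residual degree of freedom over a shorter time, 0 cytosolic genes passed in either direction, 0 mitochondrial genes rose and ProRS-m and SerRS-m fell, with 11.5% of all measured genes rising and 7.41% falling. Slopes without that library were larger in size for some of the genes that lost their call, such as LysRS (-0.60) and AlaRS-m (-0.63), and smaller for others, such as GluProRS (0.35) and ThrRS (0.13). Without the DMSO library 4 cytosolic genes rose and 0 fell, and 1 mitochondrial gene rose and 6 fell, with 28.6% and 25.7% in all measured genes.

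The cytosolic genes that rose charge tRNAs with valine, glutamate and proline, methionine, alanine, threonine and isoleucine. ValRS (FBgn0027079) had 137.5, 151.3, 164.2 and 230.8 CPM in DMSO and at 15, 30 and 60 min, a log2 fold of 0.75 (0.68 to 0.81) at 60 min and a slope of 0.75 per 60 min (adjusted p = 0.00137). GluProRS (FBgn0005674), one protein with 2 synthetase activities, had 188.2, 210.0, 212.9 and 311.9 CPM, a log2 fold of 0.73 (0.67 to 0.79) and an adjusted p of 0.00253 for its slope. MetRS (FBgn0034401), which also charges the initiator tRNA, had 176.8, 197.5, 210.1 and 286.2 CPM, a log2 fold of 0.69 (0.64 to 0.75) and an adjusted p of 0.00155. The highest value of all 3 was that of the 60 min library, at 1.62 to 1.68 times the DMSO level. AlaRS was 0.49 higher at 60 min, ThrRS 0.44 and IleRS 0.42, with adjusted p of 0.0144, 0.0262 and 0.0109 for their slopes. The slopes of AlaRS, ThrRS and IleRS missed the threshold when library sizes left out heat shock genes and the 50 genes with the most counts, with adjusted p of 0.125, 0.133 and 0.12. With the relation to length removed, ValRS and MetRS still rose, AlaRS and ThrRS missed the threshold, and GluProRS and IleRS fell.

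LysRS and HisRS, the lysine and histidine enzymes, fell. LysRS (FBgn0027084) had 253.1, 208.6, 205.5 and 166.2 CPM in DMSO and at 15, 30 and 60 min, a log2 fold of -0.61 (-0.67 to -0.55) and a slope of -0.56 per 60 min (adjusted p = 0.00432). HisRS (FBgn0027087) had 245.0, 216.8, 212.7 and 188.6 CPM, a log2 fold of -0.38 (-0.43 to -0.32) and an adjusted p of 0.018 for its slope. Without the DMSO library the adjusted p was 0.087 for LysRS and 0.307 for HisRS. LysRS and HisRS are among 5 cytosolic genes for which the name table holds no mitochondrial symbol, with GlnRS, GlyRS and ThrRS; in humans the lysine and glycine genes are known to make the enzymes of both compartments. This group was singled out after its values were seen. ThrRS rose, and GlnRS and GlyRS, at -0.20 and -0.10 at 60 min, did not pass the test. With the relation to length removed, GlnRS and GlyRS fell too (adjusted p = 0.0157 and 0.0356), the log2 fold of HisRS at 60 min was -0.67, and ThrRS missed the threshold.

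The remaining 9 cytosolic genes did not pass the slope test. Their log2 folds at 60 min ran from -0.31 (SerRS), with 336.4, 286.9, 293.7 and 270.9 CPM in DMSO and at 15, 30 and 60 min, to 0.22 (CysRS). AsnRS, AspRS and TyrRS were at -0.01, -0.05 and -0.15, and TrpRS and ArgRS at -0.20 and -0.24. Corrected for length, TyrRS and TrpRS were at 0.11 each, SerRS at -0.14 and CysRS at 0.12. AspRS shares 73.5% of its exon length with other annotated genes, most of them antisense, and no source used here gives the strand setting of the counting, so its value is uncertain. GluProRS, CysRS-m, SerRS-m and ArgRS-m share 16.6, 14.3, 13.9 and 11.8% of their exon length with an antisense gene.

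Among the mitochondrial enzymes, AspRS-m (FBgn0051739) was the 1 that rose. The aspartate enzyme had 82.4, 106.8, 101.8 and 149.2 CPM in DMSO and at 15, 30 and 60 min, a log2 fold of 0.86 (0.77 to 0.94) and a slope of 0.78 per 60 min (adjusted p = 0.00336). Its log2 fold at 60 min was the highest of the 31 genes. AspRS-m is a long gene, with a slope of -0.01 (adjusted p = 0.92) with the relation to length removed. Without the 60 min library its slope was 0.60 (adjusted p = 0.21). LeuRS-m was next, with 38.1, 39.1, 38.1 and 38.2 CPM and a log2 fold of 0.01 (-0.13 to 0.14). ArgRS-m had 18.4, 17.2, 18.3 and 17.7 CPM and a log2 fold of -0.05 (-0.25 to 0.15). IleRS-m, at -0.18, and GluRS-m, at -0.50 (adjusted p = 0.0514 for the slope), also missed the threshold. Corrected for length, LeuRS-m and IleRS-m fell, at -0.36 and -0.50 (adjusted p = 0.0117 and 0.00517), and ArgRS-m and GluRS-m, at -0.30 and -0.20, did not pass.

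Of the 9 mitochondrial genes that fell, ProRS-m, AsnRS-m and SerRS-m had slopes of -1.15, -1.13 and -1.13 per 60 min (adjusted p = 0.000691, 0.00115 and 0.000673). The other 6 were ValRS-m, CysRS-m, AlaRS-m, TyrRS-m, MetRS-m and TrpRS-m, with log2 folds at 60 min of -0.61, -0.56, -0.55, -0.54, -0.44 and -0.34. MetRS-m and TrpRS-m missed the threshold with the DESeq2 slope test (adjusted p = 0.0707 and 0.0841). The order was another with the relation to length removed. The slopes were then -1.26 for SerRS-m, -1.21 for MetRS-m, -1.07 for ValRS-m, -0.99 for AlaRS-m, -0.76 for ProRS-m and -0.72 for AsnRS-m, and TyrRS-m, at -0.15, missed the threshold (adjusted p = 0.163). Grouped by catalytic fold, a division made after the values were seen, the 5 mitochondrial enzymes of class II had a median of -1.15 (log2 fold at 60 min) and the 9 of class I one of -0.44, which were -0.78 and -0.46 with the relation to length removed. The 3 lowest genes as measured and AspRS-m are all of class II. With the relation to length removed, the 3 lowest log2 folds at 60 min were those of SerRS-m (-1.30), MetRS-m (-1.24) and ValRS-m (-1.06). MetRS-m and ValRS-m are of class I, and AspRS-m was then at 0.02. The cytosolic medians were -0.08 for 8 class II and 0.04 for 8 class I genes, with GluProRS holding a domain of each class. They were -0.11 and 0.11 with the relation to length removed.

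Cytosolic and mitochondrial genes for the same amino acid were set side by side for the 11 amino acids with a separate gene of each kind. The log2 fold at 60 min was higher for the cytosolic gene in 9 of 11, with a median difference of 0.78. The counting interval of the difference lay above 0 in 8 and below 0 in 1. The widest gaps were for valine, at 0.75 for ValRS and -0.61 for ValRS-m, a difference of 1.35 (1.09 to 1.62), and for asparagine, a difference of 1.16 (0.96 to 1.35). Methionine followed with 1.13 and alanine with 1.04. Serine, cysteine, isoleucine and tyrosine had differences of 0.84, 0.78, 0.60 and 0.40. Tryptophan, at 0.14 (-0.01 to 0.30), and arginine, at -0.19 (-0.40 to 0.02), had intervals that held 0. Aspartate was the exception, with AspRS at -0.05 and AspRS-m at 0.86, a difference of -0.91 (-1.01 to -0.81). After the correction for length, that difference was -0.08, arginine had 0.12, tryptophan 0.56, asparagine 0.66, isoleucine 0.24 and tyrosine 0.26. Serine then had 1.16, alanine 1.02 and cysteine 0.61. Methionine and valine then had the widest gaps, at 1.43 and 1.30.

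GluProRS faces 2 separate mitochondrial genes. It was 1.91 (1.75 to 2.07) above ProRS-m and 1.23 (0.97 to 1.48) above GluRS-m in log2 fold at 60 min. GluProRS is the longest of the 31 genes, and with the relation to length removed the differences were 0.41 and -0.16, the second with its direction turned. Per kilobase of exon, GluProRS stood at 4.20 times the level of ProRS-m at 60 min and at 1.12 times in DMSO, the smallest DMSO ratio of the 13 pairings. The ratio of ValRS to ValRS-m was 25.7 at 60 min and 10.1 in DMSO, and that of AspRS to AspRS-m was 4.79 at 60 min and 9.0 in DMSO. Dividing by exon length does not remove the relation of folds to length from these ratios.

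**Figure D4:**
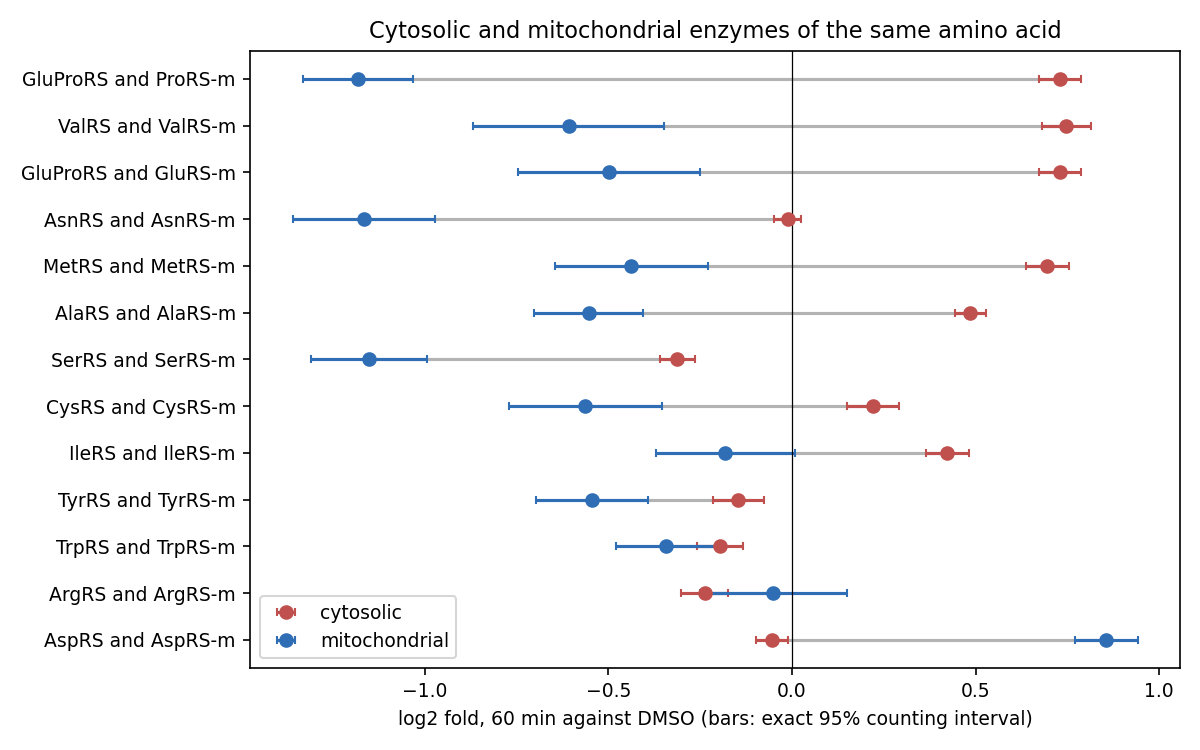
Log2 fold of 60 min against DMSO for the cytosolic and the mitochondrial gene of each amino acid, with exact 95% counting intervals and 1 library per condition; GluProRS appears beside both ProRS-m and GluRS-m. The cytosolic gene lies to the right in most pairings, by up to 1.91 for GluProRS and ProRS-m, and to the left by 0.91 for aspartate; with the relation to length removed (not plotted) these were 0.41 and 0.08.

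Folds moved with transcript length in these libraries, among all genes and among the synthetases. Over 7212 measured genes, Spearman's rho between exon length and log2 fold at 60 min against DMSO was 0.69, and the medians of 4 equal bins of length, from the shortest, were -0.82, -0.33, 0.18 and 1.02. Over the 17 cytosolic genes rho was 0.72 and over the 14 mitochondrial genes 0.56. For 60 min against 15 min rho was 0.64 over all measured genes with a length, 0.67 over cytosolic and 0.53 over mitochondrial genes. The genes share libraries, so these values are descriptions. The 2 compartments had similar median exon lengths, 2455 bases for cytosolic and 2650 bases for mitochondrial genes. Of the 7 cytosolic genes with exons of at least 2800 bases in all, a limit chosen after the values were seen, 6 rose and HisRS fell. None of the 10 shorter ones rose, and LysRS fell. What part RNA quality or library construction has in this relation was not tested.

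With the relation to length removed from the folds by a smooth curve over all measured genes, the median log2 fold at 60 min was -0.07 for the cytosolic and -0.49 for the mitochondrial enzymes, so that their difference was 0.42 against 0.47 before. The slope test then had 27.2% of 7219 genes rising and 26.3% falling. Of the cytosolic genes 2 rose, ValRS and MetRS, and 6 fell. GluProRS and IleRS, among the longest synthetase genes at 5453 and 3899 bases, turned to slopes of -0.33 (adjusted p = 0.00663) and -0.24 (adjusted p = 0.0127), while AlaRS and ThrRS missed the threshold (adjusted p = 0.681 and 0.258). Of the mitochondrial genes 0 rose and 10 fell. AspRS-m, at 4422 bases, had a slope of -0.01 (adjusted p = 0.92). In the comparison by amino acid, the cytosolic fold was higher in 10 of 11, with a median difference of 0.61.

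**Figure D5:**
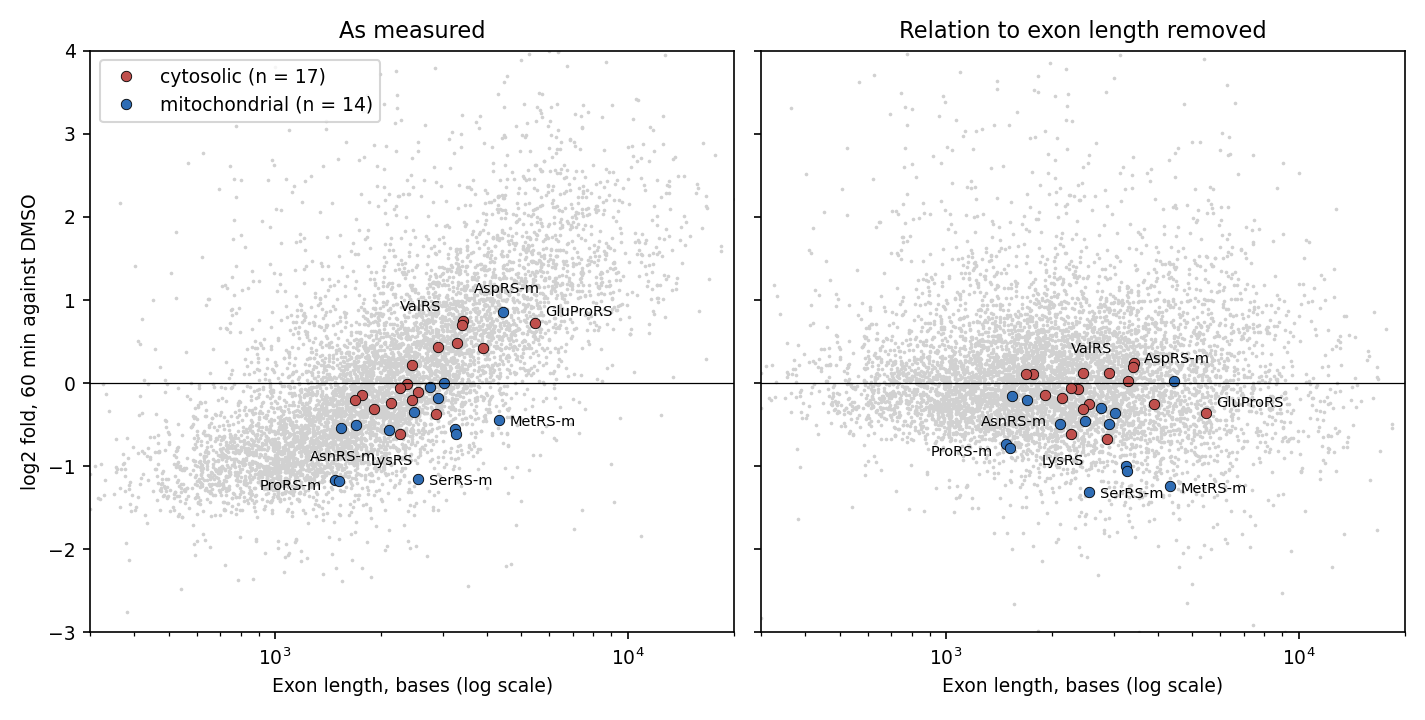
Log2 fold of 60 min against DMSO by exon length in bases (log axis), as measured (left) and after the relation to length over all genes was removed (right); grey points are measured genes, of which 99 of 7212 lie outside the left axes, red points cytosolic and blue points mitochondrial synthetases. On the left the long genes AspRS-m and GluProRS lie at 0.86 and 0.73, and on the right at 0.02 and -0.36, while SerRS-m lies at -1.15 and -1.30.

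Counts of other genes are set beside the shares of all measured genes, 34.1% rising and 33.8% falling by slope, and 19.7% higher and 12.6% lower by at least 2-fold at 60 min. Of 8 measured partners of the synthetases, 7 fell and 0 rose by the slope test (87.5% and 0%), with a median log2 fold of -0.78. With the relation to length removed, 2 of the 8 fell, AIMP1 and GatA, close to the 26.3% of all genes, and the median was -0.16. AIMP1, a scaffold of the complex that joins several cytosolic synthetases in mammals, had 2523, 2807, 2836 and 1606 counts in DMSO and at 15, 30 and 60 min, a log2 fold of -1.39 (-1.48 to -1.30). AIMP2 and AIMP3, the other scaffolds, were at -0.79 and -0.78, and at -0.14 and 0.11 with the relation to length removed. The subunits of the cytosolic phenylalanine enzyme, alpha-PheRS and beta-PheRS, whose symbols do not follow the name rule, were at -0.47 and -0.39. Corrected for length, they were at -0.175 and -0.241, and their slopes missed the threshold. GatA, part of the enzyme that completes glutaminyl-tRNA in mitochondria, was at -0.90, and at -0.583 corrected for length. GatB, at -0.11, did not pass. These genes are short, with a median of 1406 bases. The 7 cytosolic synthetases that belong to that complex in mammals had a median of -0.05 and the other 10 one of -0.06, which were -0.25 and 0.06 with the relation to length removed.

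Of 20 measured genes of the integrated stress response and of amino acid synthesis, 7 rose (35.0%) and 4 fell. At 60 min 1 was at least 2-fold lower and 4 were at least 2-fold higher. As measured, the counts of genes that rose and of those 2-fold higher were at the shares of all measured genes. The 4 were trbl (2.44), a pseudokinase, Xrp1 (2.02), a transcription factor, PEK (1.95), the kinase that senses unfolded protein in the endoplasmic reticulum, and Gcn2 (1.44), the kinase that senses uncharged tRNA. The transcription factor crc rose, with a log2 fold of 0.68, and Thor, which restrains translation initiation, with 0.89. With the relation to length removed, 8 of the 20 rose and 3 fell, against 27.2% and 26.3% of all genes. The log2 folds were then 2.38 for trbl, 1.07 for Xrp1, 0.98 for PEK, 1.76 for Thor, 0.28 for Gcn2 and 0.16 for crc. The slopes of Gcn2, crc and Sesn missed the threshold (adjusted p = 0.0535, 0.195 and 0.432). CG6287, aay, PPP1R15 and Got1, which had not passed as measured, then rose, at 1.05, 0.64, 0.41 and 0.26. CG11899, at -1.31 (-1.50 to -1.12), was the gene at least 2-fold lower. Shmt and Got2, enzymes of serine and glycine and of aspartate metabolism, fell, at -0.61 and -0.60, and P5cr-2 fell, at -0.55. With the relation to length removed, CG11899, Shmt and Got2 were at -0.67, -0.75 and -0.33, and P5cr-2 missed the threshold. Of 7 amino acid transporters 4 rose (57.1%) and 0 fell, with CG13384 at 1.22, gb at 0.96, mnd at 0.82 and JhI-21 at 0.43; corrected for length, 4 rose and path fell.

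Of 9 other genes for mitochondrial gene expression, 8 fell (88.9%) and 0 rose. Their median log2 fold was -1.01 at 60 min, and 5 were at least 2-fold lower. All are translation genes except mTTF, a mitochondrial transcription termination factor. It fell, at -0.98, and was at -0.52 with the relation to length removed. Corrected for length, 7 of the 9 fell and the median was -0.48. As measured, the lowest were tko, a protein of the small mitochondrial ribosomal subunit, at -1.25 and mIF2, an initiation factor, at -1.20. Corrected for length, mIF2 was again at -1.20, and tko was at -0.89, under the 2-fold limit. So were mRF1, mRRF1 and mRpL12, at -0.54, -0.29 and -0.23, which were at least 2-fold lower as measured. The elongation factors mEFTu1 and mEFTs were at -0.73 and -0.78, and at -0.48 and -0.38 with the relation to length removed. Of 18 genes for the synthesis and modification of tRNA, 13 fell (72.2%) and 3 rose (16.7%), and 2 were at least 2-fold lower, close to the share of all genes. Polr3G, a subunit of RNA polymerase III, was at -1.51 and Trm7-34, a tRNA methyltransferase, at -1.24, whereas Brf, which recruits that polymerase, was at 0.78 and Elp3, a subunit of the Elongator complex that modifies tRNA, at 0.45. Corrected for length, 11 fell and 3 rose, with La among the latter in place of RNaseZ. Polr3G, Trm7-34 and Brf were then at -0.62, -0.51 and 0.43. The lowest were then Polr3A and Polr3B, other subunits of that polymerase, at -1.56 and -1.38, against -0.72 and -0.825 as measured.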

How the data were processed

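The authors deposited raw counts per FlyBase gene for 4 libraries; Bowtie, HTSeq and the build dm3 are named, per the submitters' processing notes, with versions, strand setting and annotation release not given in the sources used here. The 5 HTSeq summary rows were left out of library sizes; reads without a gene were 8.19 to 13.5% and ambiguous reads 0.77 to 1.09%. Symbols paired with 13524 of 14869 IDs. Exon lengths, from Ensembl annotation of a later build and used without coordinates, covered 7219 of 7883 measured genes (91.6%).

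Counts were scaled by TMM against DMSO on the measured genes (20 or more counts on average), and CPM uses those sizes (edgeR 4.0.16, limma 3.58.1, R 4.3.3). Conditions were compared by fold with Clopper-Pearson 95% intervals and no p-value, and the slope over minutes by edgeR's quasi-likelihood test (adjusted p below 0.05). The code was first run on simulated counts with known straight-line slopes and no relation to length. That run checked the fitted slopes and does not measure the share of false calls in these libraries. The relation to length was removed by loess with span 0.3. DESeq2 1.42.0 and other settings were alternatives. The names printed are all 31 members, with full values for those past the 2-fold limit and the 3 highest and 3 lowest per compartment, and genes of the lists. Members and lists were chosen with earlier results of these data known. Promoter and protein sequences were not analysed here.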

Additional observations from a re-analysis of the deposited data

How the results depend on the processing

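No paired analysis was possible because each condition had 1 library. The count of 6 cytosolic genes that rose was 3 when library sizes left out heat shock genes and the 50 genes with the most counts, a scaling that moved the median of all measured genes by -0.08 on the log2 scale, 2 with the relation to exon length removed, and 0 to 6 with 1 library left out. The count of 2 that fell was 6 with the relation to length removed, 1 with the order of libraries in place of minutes, and 0 to 4 with 1 library left out. The count of 9 mitochondrial genes that fell was 5 with the order of libraries and 2 to 8 with 1 library left out, and the 1 that rose was 0 with the relation to length removed and 0 to 1 with 1 library left out. The counts of 0 come from edgeR's quasi-likelihood test; at an unadjusted p below 0.05 they were 0 mitochondrial rises with the relation to length removed, 0 cytosolic falls without DMSO, and 0 cytosolic rises, 0 cytosolic falls and 0 mitochondrial rises without the 60 min library. These counts with 1 library left out rest on 1 residual degree of freedom. Slopes reversed with the relation to length removed for AspRS-m (-0.009), GluProRS (-0.33) and IleRS (-0.238); in that setting the median shift per gene was 0.11, and the median log2 fold of all genes with a length was -0.007. The cytosolic median at 60 min was -0.133 without the most abundant and heat shock genes in the library size, and 0.109 against 15 min in place of DMSO. A limit of 1.41-fold gave 4 genes higher and 8 lower at 60 min and 2 lower at 30 min. DESeq2 size factors changed no slope call among the 31 genes, and DESeq2's slope test changed 2. With 237 to 852 counts in DMSO, apart from 1499 for AspRS-m, the mitochondrial genes have the wider counting intervals. The cause of these differences was not tested.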
